A study of Mus musculus with 17 samples.

Results

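The 10 genes described here encode the main hormones of the enteroendocrine cells of the mouse gut, or make serotonin there. They were chosen by name, with earlier results of these data known: Gip, Cck, Sct, Ghrl, Gcg, Pyy, Nts, Sst, Tac1 and Tph1. All 10 were found among the 33840 genes of the intestinal files and among the 24594 identifiers of the liver-labelled files, and all 10 passed the filter on low counts in both. Total RNA was sequenced in bulk from 17 libraries of wild-type (WT) mice in 7 groups. Of these, 8 came from the small intestine, with 2 libraries each of crypts after hepatectomy (removal of liver tissue), crypts after sham operation, intestinal epithelial cells (IEC) after hepatectomy, and IEC after sham operation. The other 9 carry a liver label with DSS treatment at day 0, 10 or 20, with 3 libraries per day. The sources used here do not give the stretch of small intestine, the time since surgery, the age of the mice or the number of mice behind a library. The spread that the p-values are based on is that between libraries and may be technical.

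Enteroendocrine cells are rare, hormone-secreting cells scattered through the gut lining, and they arise in the crypts and move up the villi. They are named by their main product: K cells make Gip, I cells Cck, S cells Sct, X cells Ghrl, L cells Gcg and Pyy, N cells Nts, D cells Sst, and enterochromaffin cells make serotonin through Tph1 together with the tachykinin Tac1. In the mouse, Gip, Cck, Sct and Ghrl are mostly hormones of the upper small intestine, and Gcg, Pyy and Nts rise towards its lower end. Hormone content also changes along the crypt to villus axis: Gcg and Tac1 are typical of crypts, and Nts, Sct and Pyy of villi.

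The promoter windows of 5 of the genes are shown, because Gip and Gcg went opposite ways in IEC after hepatectomy, Sct and Tac1 stood highest in different preparations, and Sst held a motif that no other of these genes held. Each window runs from 250 bases before to 50 bases after the start of the gene in RefSeq (build GRCm38.p6), written 5′ to 3′ on the strand of the gene, and capitals mark 2 motifs on either strand. The first is the E-box that basic helix-loop-helix factors bind, spelled CANNTG. The second is the box near the start of many strongly transcribed genes, spelled TATAAA. The windows are chr11:96024295-96024594 (plus strand) for Gip, chr2:62483604-62483903 (minus) for Gcg, chr7:141279084-141279383 (minus) for Sct, chr6:7554811-7555110 (plus) for Tac1 and chr16:23890795-23891094 (minus) for Sst.
Gip: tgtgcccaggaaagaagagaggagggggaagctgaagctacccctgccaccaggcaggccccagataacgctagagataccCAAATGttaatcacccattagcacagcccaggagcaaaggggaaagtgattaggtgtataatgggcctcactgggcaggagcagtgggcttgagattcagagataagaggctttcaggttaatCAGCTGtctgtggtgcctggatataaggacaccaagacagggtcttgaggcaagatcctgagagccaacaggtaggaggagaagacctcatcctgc
Gcg: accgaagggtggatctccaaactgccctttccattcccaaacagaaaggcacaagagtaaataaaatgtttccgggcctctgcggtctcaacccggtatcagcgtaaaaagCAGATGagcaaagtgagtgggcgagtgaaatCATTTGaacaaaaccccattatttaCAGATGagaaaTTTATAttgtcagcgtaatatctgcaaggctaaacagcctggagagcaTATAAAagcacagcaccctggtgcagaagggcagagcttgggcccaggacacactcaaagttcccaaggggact
Sct: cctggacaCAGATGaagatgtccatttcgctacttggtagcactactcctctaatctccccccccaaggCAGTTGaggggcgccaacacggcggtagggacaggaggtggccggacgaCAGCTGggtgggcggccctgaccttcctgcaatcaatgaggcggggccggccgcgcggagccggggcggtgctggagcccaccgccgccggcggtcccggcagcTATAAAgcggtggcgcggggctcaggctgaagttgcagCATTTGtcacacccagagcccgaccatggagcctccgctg
Tac1: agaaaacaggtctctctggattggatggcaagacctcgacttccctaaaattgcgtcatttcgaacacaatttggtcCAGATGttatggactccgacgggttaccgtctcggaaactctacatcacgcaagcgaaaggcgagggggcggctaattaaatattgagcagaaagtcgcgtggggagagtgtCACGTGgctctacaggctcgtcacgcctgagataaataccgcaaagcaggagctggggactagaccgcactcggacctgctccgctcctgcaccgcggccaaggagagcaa
Sst: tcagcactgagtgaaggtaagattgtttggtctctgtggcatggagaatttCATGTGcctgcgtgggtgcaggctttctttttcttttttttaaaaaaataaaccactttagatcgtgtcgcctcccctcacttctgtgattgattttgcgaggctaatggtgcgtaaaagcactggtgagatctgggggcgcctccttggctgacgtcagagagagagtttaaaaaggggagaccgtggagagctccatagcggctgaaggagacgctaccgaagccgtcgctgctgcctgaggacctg

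All 10 genes had at least 1 CANNTG in a RefSeq window, against 72.3% of all 32851 promoter windows of that length. TATAAA was found for Gcg and Sct only, against 13.6% of all windows, and CACGTG, which is also a CANNTG, for Cck and Tac1, against 7.15%. The cAMP response element TGACGTCA, searched on both strands, was found only for Sst, against 1.79% of all windows, and is in lower case above. Ghrl, Pyy and Tph1 have several windows, and a motif in any of them was counted. These matches are descriptions of the letters in the windows and say nothing about binding.

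Levels are given as TMM CPM, that is, counts per 1000000 after scaling by the trimmed mean of M values. Levels of the 10 hormone genes are set side by side only per kilobase (kb) of exon. Unless marked per kb, sums over gene lists and percentages of such sums are of CPM and also depend on transcript length. Per kb, Gip was the leading hormone transcript in all 4 intestinal groups. It averaged 83.3 and 394 CPM per kb in hepatectomy crypts and hepatectomy IEC, and 109 and 217 CPM per kb in sham crypts and sham IEC. Gip made up 34.2 to 35.7% of the summed 10 genes per kb in hepatectomy crypts, against 40.2 to 41.3% in sham crypts. In IEC its share was 45.1 to 45.9% after hepatectomy, against 36.3 to 36.7% after sham operation. Sct came second and Sst next in all 4 groups, and in hepatectomy crypts Sct, Sst and Cck stood close together, at 34.0, 33.7 and 32.9 CPM per kb. Tph1 was last in each group, at 1.06 to 2.29 CPM per kb, and Tac1 came before it, at 2.58 to 5.43.

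**Figure D1:**
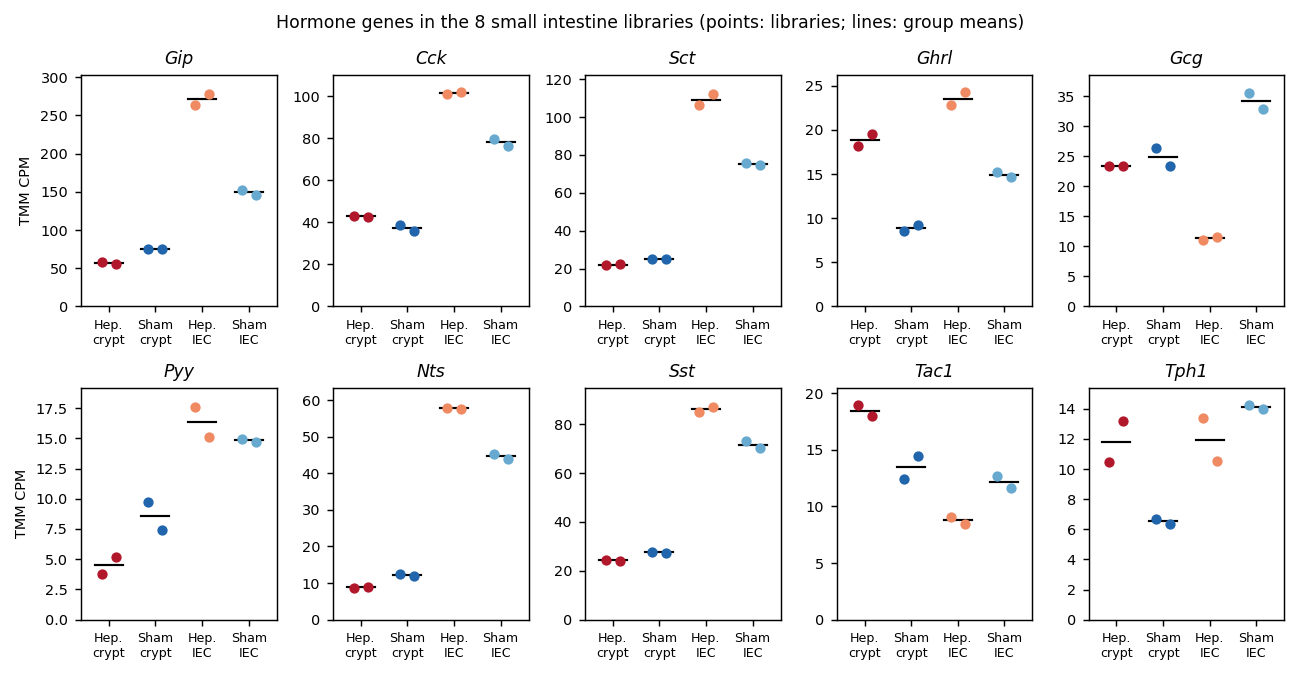
TMM CPM (vertical axes, each starting at 0) of the 10 hormone genes in hepatectomy crypts, sham crypts, hepatectomy IEC and sham IEC, with 1 point per library and lines at the group means. In 5 panels (Gip, Sct, Nts, Pyy and Sst) hepatectomy IEC stand highest and hepatectomy crypts lowest, while Gcg is lowest in hepatectomy IEC and Tac1 is highest in hepatectomy crypts.

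The hormone genes changed differently after hepatectomy in the 2 preparations. In IEC, 6 of the 10 genes rose (Gip, Ghrl, Sct, Cck, Nts and Sst) and 2 fell (Gcg and Tac1), against 37.8% of all 18207 genes tested that were called in either direction (19.5% higher and 18.3% lower). In crypts, 4 rose (Ghrl, Tph1, Tac1 and Cck) and 5 fell (Pyy, Nts, Gip, Sct and Sst), against 37.5% of all genes (19.2% higher and 18.3% lower). The median log2 change of the 10 was 0.32 in IEC and -0.13 in crypts, beside 0.02 and 0.01 over all genes. A test of the difference between the effects, crypts minus IEC, called 9 of the 10 genes, 4 positive and 5 negative, against 19.2% of all genes (9.15% positive and 10.1% negative). All calls are at an adjusted p below 0.05 from edgeR's quasi-likelihood test over all genes. In bulk RNA, fewer cells of a type and less RNA per cell cannot be told apart.

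Scaling bears on these counts. The TMM factors were 0.99 to 1.00 in hepatectomy crypts, 1.21 to 1.28 in sham crypts, 0.83 to 0.84 in hepatectomy IEC and 0.97 in sham IEC. With total counts alone, a setting added after the data were seen, the median log2 change of all genes moved to -0.31 in crypts, to -0.19 in IEC and to -0.11 in their difference. The calls in crypts were then 1564 higher and 8244 lower, beside 3493 and 3326 with TMM. In IEC they were 2083 higher and 6027 lower, beside 3544 and 3334, and for the difference 1019 and 2436, beside 1666 and 1830. Under that scaling Cck in crypts turned to -0.13 and the uncalled Pyy in IEC to -0.07, Tac1 in crypts and Cck, Nts and Sst in IEC lost their calls, and Gcg in crypts (-0.41) and Tph1 in IEC (-0.45) gained them. Olfactory receptor genes, which serve as a gauge of reads from outside gut transcripts, took 131 to 164 CPM in hepatectomy libraries and 62.5 to 82.3 CPM in sham libraries, relative to all counts. Their file names carry library numbers from separate ranges, and anything tied to those ranges cannot be told apart from the operation.

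Gip (gene at chr11:96024545-96030831), the incretin of K cells, had the largest rise of the 10 in IEC. It stood at 264 and 278 CPM in hepatectomy IEC, against 153 and 146 CPM in sham IEC, and the groups did not overlap. Its log2 change was 0.86 ± 0.05 (SE; adjusted p = 6.04e-08). In crypts Gip was lower, with 58.3 and 56.1 CPM after hepatectomy against 74.7 and 75.1 CPM after sham operation. This was a log2 change of -0.39 ± 0.05 (adjusted p = 0.000109). The effect in crypts minus that in IEC was -1.25 ± 0.07 (adjusted p = 4.32e-07).

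Cck (chr9:121489824-121495694), the I cell hormone that empties the gallbladder, was higher after hepatectomy in both preparations with TMM scaling. In IEC it stood at 101 and 102 CPM after hepatectomy, against 79.7 and 76.5 CPM after sham operation, a log2 change of 0.38 ± 0.06 (adjusted p = 0.000167). In crypts it stood at 43.1 and 42.7 CPM against 38.9 and 35.9 CPM, a log2 change of 0.20 ± 0.06 (adjusted p = 0.0174). The crypt libraries did not overlap but lay close together, and the call was lost without sham crypt replicate 2 (0.14), hepatectomy crypt replicate 1 (0.20) or hepatectomy crypt replicate 2 (0.20). Cck was the only one of the 10 whose effects were not called different between crypts and IEC (-0.18 ± 0.08, adjusted p = 0.14).

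Sct (chr7:141278330-141279133) encodes secretin, which drives bicarbonate secretion by the pancreas. In IEC it stood at 106 and 112 CPM after hepatectomy against 75.9 and 74.5 CPM after sham operation, a log2 change of 0.54 ± 0.05 (adjusted p = 6.4e-06). In crypts it stood at 21.6 and 22.2 CPM after hepatectomy against 24.8 and 25.1 CPM after sham operation, a log2 change of -0.19 ± 0.06 (adjusted p = 0.0256). The crypt call was lost without any of the 4 crypt libraries in turn, with log2 changes of -0.21 to -0.16. The difference of the effects was -0.72 ± 0.08 (adjusted p = 8.04e-05).

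Ghrl (chr6:113716119-113719880), the hunger hormone of X cells, rose in both preparations. It stood at 18.1 and 19.6 CPM in hepatectomy crypts, against 8.55 and 9.23 CPM in sham crypts. With a log2 change of 1.08 ± 0.09 (adjusted p = 1.55e-06) this was the largest rise among the 10 genes in crypts. In IEC it stood at 22.9 and 24.3 CPM after hepatectomy, against 15.2 and 14.7 CPM after sham operation, a log2 change of 0.66 ± 0.08 (adjusted p = 6.03e-05). The larger rise in crypts passed the test of the difference (0.42 ± 0.12, adjusted p = 0.0288). That call was lost without sham IEC replicate 1 (0.40) or 2 (0.45), sham crypt replicate 1 (0.42), hepatectomy IEC replicate 1 (0.39) or hepatectomy crypt replicate 2 (0.37). Ghrl overlaps Gm26982 and Gm44033 on the opposite strand, and the sources do not say which strand was counted, so its counts may hold reads of these.

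The L cell genes Gcg and Pyy did not move together. Gcg (chr2:62474530-62483650), the precursor of the incretin GLP-1, stood at 11.1 and 11.6 CPM in hepatectomy IEC, against 35.5 and 32.9 CPM in sham IEC. This was the largest change of the 10 genes in either preparation, with a log2 change of -1.59 ± 0.09 (adjusted p = 3.21e-08). In crypts Gcg stood at 23.4 and 23.3 CPM after hepatectomy against 26.3 and 23.3 CPM after sham operation, and these libraries overlapped (-0.08 ± 0.08, adjusted p = 0.437). The difference of the effects was 1.51 ± 0.12 (adjusted p = 4.63e-06). Pyy (chr11:102106676-102107832), an appetite-reducing peptide, showed the reverse pattern. In crypts it stood at 3.79 and 5.17 CPM after hepatectomy against 9.70 and 7.38 CPM after sham operation, a log2 change of -0.91 ± 0.16 (adjusted p = 0.000996). In IEC it stood at 17.6 and 15.1 CPM against 14.96 and 14.73 CPM, which did not pass the test (0.14 ± 0.14, adjusted p = 0.484). The difference of the effects for Pyy was -1.05 ± 0.22 (adjusted p = 0.0055).

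Nts (chr10:102481756-102490486), neurotensin of N cells, and Sst (chr16:23889573-23890958), the inhibitory somatostatin of D cells, both rose in IEC. Nts stood at 57.9 and 57.6 CPM in hepatectomy IEC, against 45.4 and 43.9 CPM in sham IEC (log2 change 0.37 ± 0.06, adjusted p = 0.000376). Sst stood at 84.9 and 87.2 CPM in hepatectomy IEC, against 72.9 and 70.2 CPM in sham IEC (0.27 ± 0.05, adjusted p = 0.00168). In crypts both were lower after hepatectomy, without overlap. Nts stood at 8.78 and 8.92 CPM in hepatectomy crypts against 12.5 and 11.9 CPM in sham crypts (-0.46 ± 0.07, adjusted p = 0.000414). Sst stood at 24.5 and 24.1 CPM in hepatectomy crypts, against 27.5 and 27.5 CPM in sham crypts (-0.18 ± 0.06, adjusted p = 0.0283), and this call was lost without any of the 4 crypt libraries in turn. The differences of the effects were -0.83 ± 0.09 for Nts (adjusted p = 0.000103) and -0.44 ± 0.08 for Sst (adjusted p = 0.002).

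Both enterochromaffin genes rose in crypts. Tac1 (chr6:7554879-7565834), the precursor of substance P, stood at 19.0 and 18.0 CPM in hepatectomy crypts, against 12.5 and 14.5 CPM in sham crypts (0.45 ± 0.09, adjusted p = 0.00277). In IEC it was lower after hepatectomy, at 9.10 and 8.43 CPM against 12.7 and 11.6 CPM after sham operation (-0.47 ± 0.11, adjusted p = 0.00464). The effects differed by 0.92 ± 0.14 (adjusted p = 0.000957). Tph1 (chr7:46644641-46672537), the rate-limiting enzyme of serotonin synthesis, stood at 10.5 and 13.2 CPM in hepatectomy crypts, against 6.67 and 6.37 CPM in sham crypts (0.86 ± 0.14, adjusted p = 0.000385). In IEC it stood at 13.4 and 10.5 CPM after hepatectomy against 14.26 and 13.96 CPM after sham operation, which did not pass (-0.24 ± 0.13, adjusted p = 0.192) but did without hepatectomy IEC replicate 1 (-0.44, adjusted p = 0.0466). The difference for Tph1 was 1.10 ± 0.19 (adjusted p = 0.0018).

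**Figure D2:**
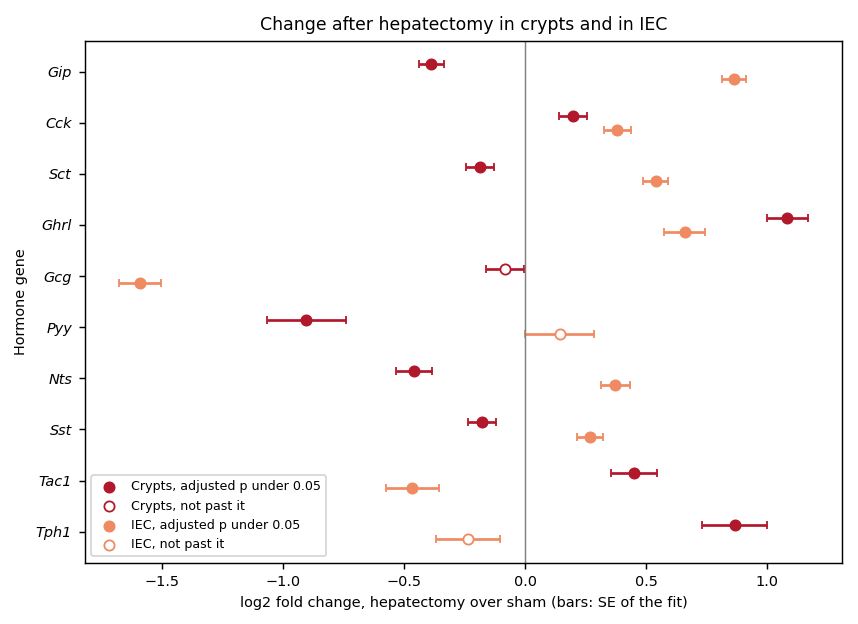
Log2 fold change of hepatectomy over sham (horizontal axis, bars: SE) for each hormone gene, with crypts drawn above IEC and filled points for adjusted p below 0.05. Gip, Sct, Nts and Sst lie left of 0 in crypts and right of it in IEC, Tac1 lies the other way round, and Ghrl and Cck lie right of 0 in both.

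In crypts against IEC, most hormones were lower in crypts after either operation. After sham operation 9 of the 10 genes were lower in crypts and none was higher, against 38.6% of all genes called in either direction (19.3% higher and 19.3% lower). After hepatectomy 7 were lower and 2 higher, against 51.9% of all genes (26.3% higher and 25.6% lower). The median log2 difference of the 10 was -1.53 after hepatectomy and -1.03 after sham operation, beside 0.01 and 0.02 over all genes. With total counts alone the medians of all genes moved to 0.26 and 0.37, and the split of calls to 7270 higher and 3072 lower after hepatectomy (4780 and 4662 with TMM) and to 8596 and 1742 after sham operation (3523 and 3513 with TMM). Of the 10 genes, Ghrl after hepatectomy (-0.07) and Gcg after sham operation (-0.11) then lost their calls, and Tac1 after sham operation (0.51) gained one.

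Nts had the steepest difference. It was lower in crypts by a log2 difference of -2.71 ± 0.07 after hepatectomy (adjusted p = 1.01e-11) and of -1.87 ± 0.07 after sham operation (adjusted p = 3.48e-10). Sct followed, with -2.32 ± 0.06 and -1.59 ± 0.06, and Gip had -2.24 ± 0.05 and -0.99 ± 0.05. Sst, Pyy and Cck were also lower in crypts after both operations, by log2 differences between -1.86 and -0.81. Tac1 went the other way. It was higher in crypts after hepatectomy (1.07 ± 0.10, adjusted p = 2.29e-06) and overlapped between the preparations after sham operation (0.16 ± 0.10, adjusted p = 0.252). Gcg was higher in crypts after hepatectomy (1.04 ± 0.09, adjusted p = 6.19e-07) and, with TMM scaling, lower in crypts after sham operation (-0.47 ± 0.08, adjusted p = 0.000498). As a percentage of the summed genes that endocrine cells share, however, Gcg was higher in sham crypts, at 9.62 to 10.4% against 8.71 to 9.49% in sham IEC. On that scale Tac1 too was higher in sham crypts, at 4.95 to 5.97% against 3.07 to 3.38% in sham IEC. Most of that sum was Chgb, a granule protein gene, so these percentages depend largely on it. Tph1 did not differ past the threshold after hepatectomy (-0.01 ± 0.13, adjusted p = 0.939) and was lower in crypts after sham operation (-1.12 ± 0.14, adjusted p = 4.56e-05). The test of whether these differences change with the operation is the same as the test of the difference of effects above.

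**Figure D3:**
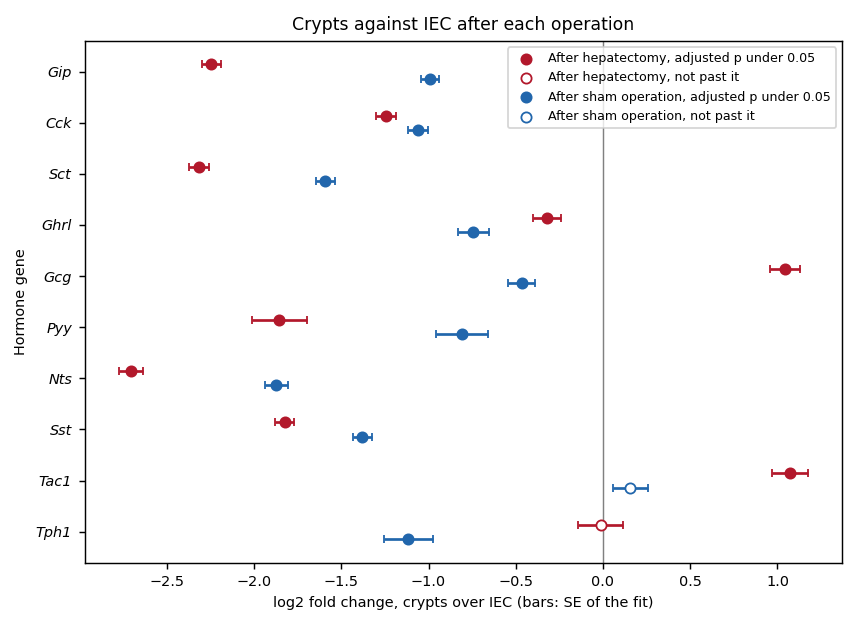
Log2 fold change of crypts over IEC (horizontal axis, bars: SE) for each hormone gene, after hepatectomy (upper point of each pair) and after sham operation (lower point). Only Gcg and Tac1 lie clearly right of 0, both after hepatectomy, at 1.04 and 1.07.

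Across the 4 intestinal groups, hepatectomy IEC stood highest and hepatectomy crypts lowest for Gip, Sct, Nts, Pyy and Sst, with sham IEC above sham crypts between them and no overlap between neighbours. For Cck the order was hepatectomy IEC, sham IEC, hepatectomy crypts and sham crypts, and for Ghrl hepatectomy IEC, hepatectomy crypts, sham IEC and sham crypts, again without overlap. Gcg ran from sham IEC through sham crypts and hepatectomy crypts, which overlapped, to hepatectomy IEC. Tac1 ran from hepatectomy crypts through sham crypts and sham IEC, which overlapped, to hepatectomy IEC. For Tph1, hepatectomy IEC and hepatectomy crypts overlapped, with sham IEC above and sham crypts below them. The share of all genes with such orders, or without overlap between groups, is not given here. Neither feature is therefore shown to be particular to the hormone genes.

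The crypt label was set against markers. Between crypts and IEC, 51.9% of all genes were called after hepatectomy and 38.6% after sham operation. Enterocyte markers were lower in crypts for 14 of 14 genes after both operations, while Paneth cell markers were lower too, for 8 of 8 genes after hepatectomy and 7 of 8 after sham operation. Of 9 crypt base stem cell markers, 5 were higher and 2 lower in crypts after hepatectomy, and 3 were higher and 4 lower after sham operation. Olfm4, the most abundant of them, stood at 924 to 936 CPM in hepatectomy crypts and 629 to 637 CPM in hepatectomy IEC, and at 1651 to 1700 CPM in sham crypts and 1400 to 1403 CPM in sham IEC. Olfm4 was thus abundant in both preparations. Lgr5, another of these markers, was lower in crypts after both operations. After hepatectomy it stood at 8.67 to 11.58 CPM in crypts and 14.42 to 14.64 CPM in IEC. After sham operation it stood at 12.57 to 12.93 CPM in crypts and 16.01 to 17.15 CPM in IEC.

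Summed, the genes that enteroendocrine cells share were ordered differently from the summed hormones. The summed CPM of Chga, Chgb, Scg3, Pcsk1, Cpe, Neurod1, Scgn and Isl1 was 359 to 366 in hepatectomy crypts against 242 to 252 in sham crypts. In IEC it was 316 to 328 after hepatectomy against 374 to 378 after sham operation. The 10 hormone genes went the other way in IEC, with a sum of 689 to 707 CPM after hepatectomy against 498 to 519 CPM after sham operation. In crypts they summed to 231 to 233 CPM after hepatectomy and 236 to 242 CPM after sham operation. Chgb, a granule protein, made up most of the shared sum. It rose in crypts (245 ± 1.6 CPM against 143 ± 1.2 CPM, SD, n = 2 each, adjusted p = 1.18e-07) and fell in IEC (171 ± 7.6 CPM against 213 ± 0.45 CPM, adjusted p = 0.000164). The shared sum thus moved in the direction of Chgb in both preparations. A sum without Chgb is not given here, so the order is not shown for the other shared genes.

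A hormone's CPM as a percentage of that shared sum does not depend on library scaling. The percentage does depend on Chgb, which made up most of the sum, rose in crypts and fell in IEC. Whether the directions below hold without Chgb was not tested. For Gip the percentage was 80.5 to 88.0% in hepatectomy IEC against 38.5 to 40.8% in sham IEC. In crypts it was 15.3 to 16.3% after hepatectomy against 29.7 to 31.0% after sham operation. Gcg was at 3.39 to 3.66% in hepatectomy IEC against 8.71 to 9.49% in sham IEC, and at 6.37 to 6.52% in hepatectomy crypts against 9.62 to 10.4% in sham crypts. On this scale Ghrl was above sham in both preparations, with 5.05 to 5.34% in hepatectomy crypts against 3.40 to 3.81% in sham crypts. Cck, however, was below sham in crypts, at 11.7 to 12.0% after hepatectomy against 14.8 to 15.5% after sham operation. Tac1 overlapped in crypts, at 4.90 to 5.29% against 4.95 to 5.97%. Pyy in IEC, which had no call, was above sham on this scale, at 4.79 to 5.36% against 3.902 to 3.999%. For Sct, Nts and Sst the direction was as with TMM in both preparations, and Tph1 was above sham in crypts and overlapped in IEC.

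For the lists in this and the next 3 paragraphs, 37.5% of all genes were called after hepatectomy in crypts (19.2% higher and 18.3% lower). In IEC the share was 37.8% (19.5% higher and 18.3% lower). Among 23 tested transcription factors of the enteroendocrine lineage, 4 rose and 2 fell in crypts after hepatectomy, and 2 rose and 3 fell in IEC. Pdx1, a duodenal and pancreatic homeobox factor, rose in both, to 20.9 ± 0.95 CPM in hepatectomy IEC against 6.08 ± 0.90 CPM in sham IEC (log2 change 1.78 ± 0.11) and to 13.3 ± 0.47 CPM in hepatectomy crypts against 6.13 ± 0.47 CPM in sham crypts (1.12 ± 0.11). Atoh1, which commits cells to the secretory lineages, fell in both, by 1.26 on the log2 scale in crypts and by 0.38 in IEC. Neurod1, a maturation factor of these cells, rose in crypts (0.53 ± 0.12), and Fev, a factor of enterochromaffin cells, fell in IEC (-0.89 ± 0.23). Neurog3, which starts the endocrine lineage, stood at 3.73 to 4.01 CPM in hepatectomy crypts against 4.03 to 4.68 CPM in sham crypts, with no call.

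Of 25 tested genes for secretory granules and prohormone processing, 7 rose and 2 fell in crypts, and 2 rose and 3 fell in IEC. Snap25, a fusion protein of neurons and endocrine cells, fell in both (-1.26 ± 0.22 in crypts, -1.45 ± 0.22 in IEC). Between preparations, Chga was lower in crypts after sham operation (-0.72 ± 0.05, adjusted p = 4.62e-07), as were 11 others of the list, while 2 were higher. Of all genes, 38.6% were called in that comparison (19.3% higher and 19.3% lower). Of 13 tested genes of serotonin handling, 7 rose and 2 fell in crypts, and 9 rose and 1 fell in IEC. The largest were the degrading enzyme Maob (1.96 ± 0.07 in crypts, 1.47 ± 0.06 in IEC) and, in IEC, the vesicle loader Slc18a1 (1.21 ± 0.13); the uptake transporter Slc6a4 rose by 0.30 ± 0.06 in crypts and 0.54 ± 0.06 in IEC.

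Of 18 tested nutrient and bile acid sensors, 2 rose and 2 fell in crypts, and 4 rose and 3 fell in IEC. The glucose carrier Slc5a1 and the fatty acid carrier Cd36, both made mainly by enterocytes, rose in both preparations, and the long-chain fatty acid receptor Ffar4 fell in crypts (-1.74 ± 0.16). Of 10 tested hormone receptors and peptidases, 5 rose and none fell in crypts, and 3 rose and 1 fell in IEC. Those with the smallest p were brush border peptidases, among them Dpp4, which inactivates Gip and GLP-1 (0.43 ± 0.06 in crypts, 1.11 ± 0.06 in IEC). Of 14 other gut peptide genes tested, 3 rose and 4 fell in crypts and 5 rose and 2 fell in IEC, led by Guca2b (1.69 ± 0.04 in crypts, 1.57 ± 0.04 in IEC) and Apoa4 (1.22 ± 0.04 and 1.55 ± 0.04), which are products of enterocytes too.

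Markers of gut region and of other cells moved with the operation, and their part in the hormone changes was not tested. Of 14 markers of the upper small intestine, 12 rose and none fell in crypts, and 13 rose and 1 fell in IEC. Their summed level was 3128 to 3185 CPM in hepatectomy crypts against 1039 to 1082 CPM in sham crypts, and 27727 to 29650 CPM in hepatectomy IEC against 10205 to 10390 CPM in sham IEC. Of 14 markers of the lower small intestine, 4 rose and 7 fell in crypts, and 5 rose and 6 fell in IEC. The ileal bile acid binder Fabp6 was lower after hepatectomy in crypts (-0.85 ± 0.08) and in IEC (-1.40 ± 0.08). Enterocyte markers rose for 14 of 14 genes in both preparations, with a sum of 56068 to 57756 CPM in hepatectomy IEC against 23547 to 23757 CPM in sham IEC. Goblet cell markers fell for 8 of 8 genes in crypts, while in IEC 3 rose and 2 fell. Paneth cell markers fell for 8 of 8 genes in crypts, while in IEC 2 rose and 6 fell. Lymphocyte markers fell for 10 of 12 in crypts and 8 of 12 in IEC.

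Markers of other organs and cells that make these hormones were measured too, and their part in the results was not tested. The pancreas makes Gcg and Sst, and its islet gene Ins1 was at 0 in all sham libraries and at most 0.13 CPM in a hepatectomy library. The other 8 pancreas markers in the files summed to little outside Cela1, with the whole list at 4.97 to 14.3 CPM. Neurons make Tac1, Sst and Nts, and the 15 markers of enteric neurons and glia summed to 4.08 to 10.0 CPM over the 4 intestinal groups, with Elavl4 at 0.20 CPM or less. The stomach makes Ghrl and Sst. Its 9 markers summed to 12.5 to 12.7 CPM in hepatectomy IEC against 39.9 to 44.2 CPM in sham IEC. Gkn1 and Gkn2 were lower by log2 changes of -3.28 and -3.56, and Gkn3 overlapped, at 7.21 to 7.69 CPM against 5.45 to 7.35 CPM. In crypts the stomach list stood at 17.8 to 18.6 CPM after hepatectomy against 12.0 to 12.8 CPM after sham operation. Its gastrin gene Gast stood at 0.12 CPM or less in each of the 8 libraries.

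Genes with the pattern most like each hormone were looked up over the 8 intestinal libraries, which form 4 groups of 2, among 13344 genes. By Pearson r of log2 CPM, Cck was most like Npc1l1 and Slc46a1 (0.999 each), Gip most like Ang (0.999), Nts most like Mep1a (0.999), Sct most like S100a10 (0.998) and Sst most like Apol9a (0.998). Gcg was most like Mlph (0.992), Ghrl most like H2az2 (0.993), Pyy most like Fgf1 (0.994) and Tac1 most like Rcor1 (0.994). Tph1 had no gene as close, with Camk2b at 0.972. With 4 group levels and this many genes such values are a description of the order of groups.

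The liver-labelled libraries were first set against markers of their tissue. Alb, the main plasma protein of hepatocytes, stood at 278 to 384 CPM at day 0, 377 to 1165 CPM at day 10 and 53491 to 58051 CPM at day 20. The crypt gene Olfm4 stood at 6489 to 7184, 2625 to 4807 and 41.3 to 62.0 CPM on these days. The day 0 and day 10 libraries thus go against the liver label, and they are called by that label only as a name. Day 10 replicate 3 has the lowest total of the 9 libraries (12742629 counts) and a TMM factor of 1.64, against 1.03 to 1.16 for the other day 10 libraries. Olfactory receptor genes took 317 to 335 CPM of all counts at day 0, 389 and 444 CPM in day 10 replicates 1 and 2, 1107 CPM in day 10 replicate 3 and 106 to 118 CPM at day 20, and their part in the hormone changes was not tested. The days also differ in Xist, made only by female cells, at 21.3 to 25.7 CPM at day 0, 241 to 566 CPM at day 10 and 1.41 to 1.95 CPM at day 20, and the Y-linked Eif2s3y at 33.9 to 42.4, 0.42 to 1.93 and 66.99 to 72.07 CPM, so sex and day cannot be told apart.

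All 10 hormone genes were present at day 0 and nearly absent at day 20. The levels of Alb and Olfm4 also set day 20 apart from the other days. Tissue make-up and day therefore cannot be told apart in the day 20 comparisons. Summed, they stood at 170 to 230 CPM at day 0, 74.4 to 104 CPM at day 10 and 1.39 to 1.77 CPM at day 20. At day 10 against day 0, 7 of the 10 fell and none rose, against 43.6% of all 16694 genes called in either direction (24.7% higher and 18.8% lower). These were 4129 higher and 3146 lower, beside 2542 and 1343 with total counts alone, where Cck (-0.87), Sct (-0.59) and Tph1 (-0.90) lost their calls. At day 20 all 10 were lower than at day 0, against 71.4% of all genes (33.3% higher and 38.1% lower), and lower than at day 10, against 71.1% (30.8% higher and 40.3% lower). The median log2 change at day 10 was -1.03 for the 10 genes and 0.10 for all genes.

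Gcg, Tac1 and Pyy fell at day 10. Gcg stood at 65.1, 48.6 and 47.3 CPM at day 0 and at 11.4, 9.37 and 21.4 CPM at day 10, a log2 change of -1.94 ± 0.35 (adjusted p = 0.00285). Tac1 stood at 26.6, 18.3 and 19.4 CPM at day 0 and at 6.45, 5.70 and 5.21 CPM at day 10, a change of -1.89 ± 0.22 (adjusted p = 0.000246). Neither overlapped between the days. Pyy stood at 10.9, 6.88 and 8.81 CPM at day 0 and at 0.82, 1.75 and 3.86 CPM at day 10 (-2.08 ± 0.47, adjusted p = 0.00632). Nts stood at 4.26, 3.24 and 2.44 CPM at day 0 and at 0.36, 0.20 and 2.31 CPM at day 10, and did not pass (-1.83 ± 0.76, adjusted p = 0.0668).

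Day 10 replicate 3 held the highest Gcg, Pyy, Nts, Cck, Sst and Gip of its group. Without it the change at day 10 was -2.41 for Gcg, -2.85 for Pyy, -3.53 for Nts (adjusted p = 6.69e-05) and -0.82 for Sst (adjusted p = 0.00963), and 9 of the 10 genes were called, against 40.7% of all genes in that fit. Nts was also called without day 0 replicate 3 (-2.22, adjusted p = 0.0409).

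The other hormones changed less at day 10. Ghrl stood at 14.8, 12.6 and 11.3 CPM at day 0 and at 5.24, 6.76 and 6.17 CPM at day 10 (-1.09 ± 0.22, adjusted p = 0.00444). Cck stood at 34.0, 24.2 and 23.6 CPM at day 0 and at 12.6, 11.94 and 17.02 CPM at day 10 (-0.98 ± 0.21, adjusted p = 0.00566). Tph1 stood at 6.88, 5.85 and 5.78 CPM at day 0 and at 3.51, 3.26 and 2.89 CPM at day 10 (-0.93 ± 0.30, adjusted p = 0.0269). The groups did not overlap for these 3 genes, and the Tph1 call was lost without day 0 replicate 1 (-0.96, adjusted p = 0.0548). Sct stood at 24.9, 18.9 and 20.3 CPM at day 0 and at 12.7, 14.2 and 13.9 CPM at day 10 (-0.66 ± 0.25, adjusted p = 0.0481). The Sct call was lost without day 0 replicate 1, day 10 replicate 1, day 10 replicate 2 or day 20 replicate 3, with log2 changes of -0.76 to -0.65. Gip stood at 27.4, 20.0 and 21.4 CPM at day 0 and at 14.4, 17.2 and 18.9 CPM at day 10 (-0.45 ± 0.26, adjusted p = 0.174), without overlap. Sst stood at 14.7, 11.1 and 12.1 CPM at day 0 and at 6.97, 7.66 and 11.95 CPM at day 10, and these overlapped (-0.51 ± 0.25, adjusted p = 0.113).

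**Figure D4:**
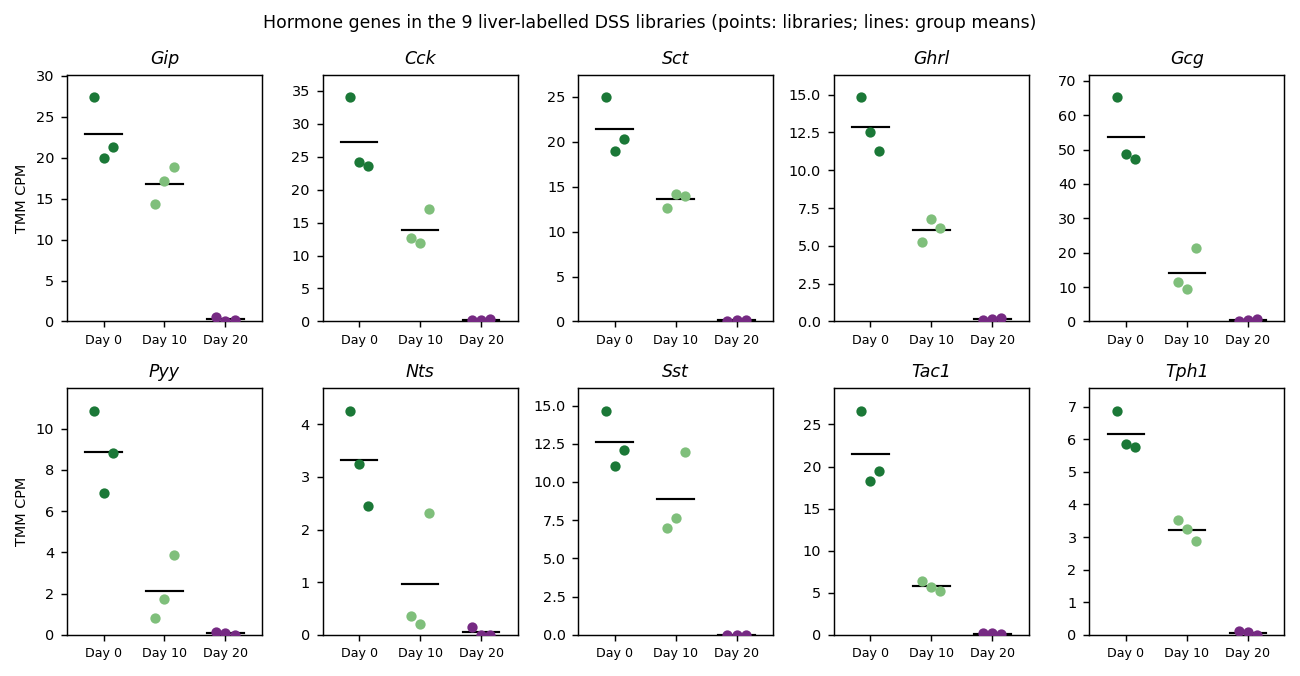
TMM CPM (vertical axes, each starting at 0) of the hormone genes in the libraries labelled liver and DSS at day 0, 10 and 20, with 1 point per library and lines at the group means. All 10 genes lie near 0 at day 20, and for Gcg, Pyy, Nts, Cck, Sst and Gip the highest day 10 point is replicate 3.

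The shares of the hormones among each other also differed at day 10. Per kb, Gcg made up 19.5 to 20.8% of the 10 genes at day 0 and 7.43 to 13.2% at day 10, while Gip made up 18.6 to 19.2% at day 0 and 25.3 to 29.6% at day 10. Sct held 18.2 to 19.4% at day 0 and 19.9 to 26.0% at day 10. The genes shared by endocrine cells summed to 194 to 261 CPM at day 0, 83.2 to 103 CPM at day 10 and 1.84 to 2.36 CPM at day 20. As a percentage of that sum, which does not depend on library scaling, the days overlapped for 4 of the 7 genes called lower at day 10. Gcg was at 23.7 to 24.9% at day 0 and 10.2 to 25.8% at day 10, Pyy at 3.35 to 4.55% and 0.79 to 4.63%, Ghrl at 5.67 to 6.12% and 5.07 to 7.42%, and Cck at 11.8 to 13.01% and 12.2 to 20.4%. The highest of these values at day 10 were those of replicate 3. Tac1 was lower at day 10 on this scale too, at 8.90 to 10.2% at day 0 and 6.22 to 6.26% at day 10. Sct and Tph1 were higher at day 10, with 9.23 to 10.5% and 12.2 to 16.7% for Sct and 2.63 to 2.98% and 3.40 to 3.56% for Tph1. Of the 3 genes with no call, Gip was at 9.74 to 11.02% at day 0 and 13.9 to 22.7% at day 10, Sst at 5.39 to 6.23% and 6.74 to 14.4%, and Nts overlapped.

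**Figure D5:**
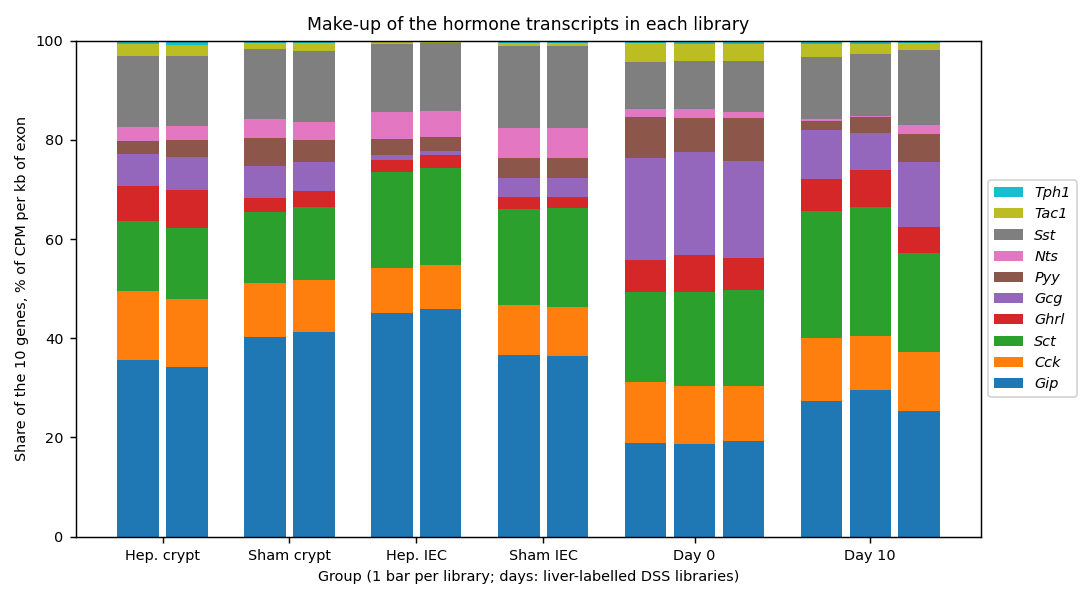
Share of each hormone gene in the summed CPM per kb of exon of the 10 genes (vertical axis, %), with 1 bar per library in the 4 intestinal groups and in the liver-labelled day 0 and day 10 groups. Gip takes 34.2 to 45.9% in the intestinal libraries and 18.6 to 19.2% at day 0, where Gcg takes 19.5 to 20.8%.

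Of the transcription factors of the endocrine lineage, 2 rose and 3 fell at day 10 among 23 tested. For this and the next lists the share of all genes called at day 10 was 43.6%, with 24.7% higher and 18.8% lower. Neurog3 fell (-1.45 ± 0.33, adjusted p = 0.00698), at 8.76 to 12.1 CPM at day 0 and 2.79 to 5.45 CPM at day 10, as did Atoh1 (-0.95 ± 0.25) and Neurod1. Of 26 granule and processing genes 2 rose and 4 fell, with Chga at -1.50 ± 0.20 and Chgb at -1.29 ± 0.19. Of 14 serotonin handling genes 4 rose and 1 fell, of 17 sensors 7 rose and 3 fell, of 15 receptors and peptidases 5 rose and none fell, and of 13 other gut peptides 4 rose and none fell. Among the sensors Ffar4 fell (-1.70 ± 0.34) and Trpm5, also a tuft cell gene, rose (1.89 ± 0.19). Tuft cell markers rose for 9 of 9 tested genes, enterocyte markers for 9 of 14 and smooth muscle and fibroblast markers for 7 of 11. Of the 10 hepatocyte markers, all but Alb (1.03 ± 0.41, adjusted p = 0.0559) and Cps1 (-0.21 ± 0.42) were called higher at day 10. The part of all these markers in the hormone changes was not tested.

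At day 20, where tissue make-up and day cannot be told apart, the hormone genes had few reads. Gcg had 2, 12 and 21 counts, Gip 14, 2 and 6 and Cck 6, 5 and 10, while Nts had 4 counts in replicate 1 and 0 in the others. Sst had 0 counts in all 3 day 20 libraries, which, at a floor of 3 counts per library, puts it at least 113-fold lower than at day 0 and at least 79.5-fold lower than at day 10. The 10 hepatocyte markers summed to 136571 to 139007 CPM at day 20, against 1024 to 2560 CPM at day 0 and 2142 to 3635 CPM at day 10. These sums include Cps1, at 362 to 1674 CPM at day 0, which also stood at 508 to 902 CPM in the intestinal libraries. With total counts alone the median of all genes moved to -1.07 for day 20 against day 0 and to -1.17 against day 10, with splits of calls of 3198 higher and 9299 lower (5558 and 6356 with TMM) and of 2410 and 10230 (5150 and 6720 with TMM), and all 10 genes were called lower under both scalings.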

How the data were processed

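RNA-seq libraries of 17 samples were analysed, grouped by their titles. The tools STAR and Partek and the build mm10 are listed, without versions, per the submitters' processing notes. In the deposited intestinal files the values are expected counts per gene symbol (estimated counts, 36.7% of them not whole), and they were rounded to whole numbers. The deposited liver-labelled files hold whole counts per gene identifier, of which 99.9% had a symbol in the annotation. Between 3.93 and 22.1% of the counts in a library fell on 24 identifiers without one. The sources do not say how reads were assigned or on which strand. Total counts were 26609786 to 43580050 (intestinal) and 12742629 to 42669857 (liver-labelled). The floor behind a 0 was 3 counts in each library, which covers counting error alone.

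The 2 tables were fitted separately and no test crosses them. The fits used edgeR 4.0.16 in R 4.3.3, with TMM scaling, filterByExpr (minimum count 10, minimum total 15), a quasi-likelihood test and Benjamini-Hochberg adjustment over all genes tested. The 8 intestinal libraries shared 1 fit and the 9 liver-labelled libraries another, giving 8 comparisons. All 10 hormone genes are named, and other genes by smallest p within a list. The members and lists were chosen with earlier results of these data known. Exon lengths and coordinates (1-based, mm10) are from GENCODE vM21 and promoters from RefSeq (GRCm38.p6). Alternatives were RLE size factors, DESeq2 1.42.0, no filter, stricter filtering (1 CPM or more in every library of some group, with a mean of 5 CPM or more there), a replicate block, fits of only the groups compared, and leaving out each library. Total counts alone was added after the data were seen. Where a group was left with 1 library, that library was assumed to vary like the others.

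Each layout was also tested on simulated data in which 200 genes were changed by known amounts. Far more genes were called in the real data, so this test does not cover scaling when many genes change. For hepatectomy against sham in crypts, 86.6% of genes altered by a factor of 1.5 were called, and 90.1% at a factor of 2. For day 10 against day 0 these shares were only 7.69% and 54.9%, rising to 92.2% at a factor of 4. False calls made up 5.64% of the calls in the crypt layout and 6.36% in the day 10 layout. A missing call at day 10 therefore cannot show that a change of such small size was absent. Replicates of a group differed by more than sampling noise, and none was a duplicate. Figures were drawn with matplotlib 3.10.9 in Python 3.11.15.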

Additional observations from a re-analysis of the deposited data

Results flagged for a closer look

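For 9 of the 10 hormone genes the effect of hepatectomy differed between crypts and IEC by an interaction test in edgeR (adjusted p below 0.05), against 19.2% of all 18207 genes tested, given as the log2 effect in crypts minus that in IEC. The difference was 1.51 for Gcg, which fell in IEC and overlapped between operations in crypts. It was 1.10 for Tph1, 0.92 for Tac1 and 0.42 for Ghrl, of which Tph1 rose in crypts without a call in IEC, Tac1 rose in crypts and fell in IEC, and Ghrl rose in both. It was -1.25 for Gip, -0.83 for Nts, -0.72 for Sct and -0.44 for Sst, which fell in crypts and rose in IEC. For Pyy, which fell in crypts and was not called in IEC, it was -1.05. The crypt falls of Sct and Sst on which these descriptions rest were lost with DESeq2 and with any crypt library left out, while their differences were called under all 14 alternatives run. The Ghrl difference was called under 7 of 14.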

How the results depend on the processing

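Across the alternatives, 241 of 244 recomputed counts of called genes, both directions together, stayed within 1.5 times the value reported. Split by direction they moved further: with total counts alone, calls in crypts went from 3493 higher and 3326 lower to 1564 and 8244. Of 1216 recomputed changes of a hormone gene, those of the day 20 comparisons included, 1153 kept their direction and their side of the threshold. Of the others, 42 lost a call, 12 gained one and 9 changed sign. For day 10 against day 0, total counts alone called 4 of the 10 genes and 3885 genes in all, and the stricter filter, which tests fewer genes, called 4423 in all, beside 7 and 7275. Sign changed with total counts alone for Cck in crypts (-0.13), for Pyy in IEC (-0.073) and for Tph1 in crypts against IEC after hepatectomy (0.23). The last also changed sign without a filter (0.045) and without sham crypt replicate 1 (0.02) or 2 (0.0016), hepatectomy IEC replicate 1 (0.18) or hepatectomy crypt replicate 1 (0.15), within a range of -0.19 to 0.18 over the libraries left out. The change of Gcg in crypts ranged from -0.17 to 0.0071, the last without sham crypt replicate 1. None of the values with a changed sign passed the threshold, and the cause was not tested. With libraries left out in turn, called hormone genes ranged from 6 to 9 in crypts, 8 to 9 in IEC, 8 to 9 for the difference and 5 to 9 at day 10 against day 0, and stayed at 9, 9, 10 and 10 for the crypt against IEC and day 20 comparisons. Same-numbered libraries did not deviate together (correlations of -0.03 to 0.04), so the numbers were not taken to pair them. With the replicate number as a block, the hormone calls were 9, 8, 9, 9, 9, 6, 10 and 10 in the 8 comparisons, the 1 changed call being Sct at day 10 (-0.66, adjusted p = 0.0784). Depth limits the day 20 values, where the hormone genes had 0 to 21 counts per library. Nts was not tested under the stricter filter in the liver-labelled libraries, nor at day 20 against day 10 with only those groups, and the difference between crypts and IEC uses all groups, so it has no fit of fewer.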
